A study of Danio rerio with 23 samples.

Results

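The expression of endothelial receptor and junction genes was compared among zebrafish larvae that lacked glo1, akr1a1a, both or neither. The genes were those whose zebrafish symbol, case ignored, was kdrl, kdr, flt1, flt4, cdh5, tie1, tek, fli1, vegfa or plvap, or 1 of these with an a or b added. Of the 10 symbols 9 were found, on 11 of the 22856 genes listed, and flt1 was not analysed here. Both plvap copies, plvapa and plvapb, were found. So were both genes carrying the symbol VEGFA (ENSDARG00000103542 and ENSDARG00000034700), which the names did not tell apart as the a and the b copy and which could share reads in the counting. All 11 passed the filter on low counts in every comparison.

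Messenger RNA of whole larvae at 96 hours post fertilization (hpf) was sequenced in 23 libraries. WT, GLO1KO and GLO1/AKR1A1A DKO (DKO) larvae gave 6 libraries each and AKR1A1AKO larvae gave 5, and a library held 1 clutch of 20 larvae. No larvae were treated. AKR1A1AKO larvae carried a CRISPR/Cas9 knockout of akr1a1a, an aldo-keto reductase that detoxifies acrolein, GLO1KO larvae one of glo1, the glyoxalase that detoxifies methylglyoxal, and DKO larvae both. The DKO and WT lines descended from intercrossed double heterozygotes, whereas the GLO1KO and AKR1A1AKO lines had been established individually. In comparisons with either of these, genotype and line cannot be told apart. Larvae of every genotype, WT included, carried the Tg(fli1:EGFP) transgene, in which the fli1 promoter drives a green fluorescent protein in the vessels.

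Endothelial cells line all blood and lymphatic vessels. The ligand VEGFA acts on their kdr and kdrl receptors and drives vessel growth, while flt4 binds VEGFC and is needed for lymphatic vessels. The receptor tek (Tie2) binds angiopoietins and, with its partner tie1, steadies the vessel wall. Neighbouring cells are held together by VE-cadherin, the product of cdh5, and plvap forms the diaphragms of fenestrated capillaries. The transcription factor fli1 is expressed in endothelium and, in zebrafish, also in neural crest derived cartilage of the head.

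The libraries held 34316527 to 36804437 counts, and the 11 genes between 55 and 2314 counts in a library. Levels are given in CPM, counts scaled to an equal library size, after TMM normalization. The targeted gene glo1 lay between 73.5 and 87.1 CPM in WT and AKR1A1AKO libraries and between 2.73 and 4.16 CPM in GLO1KO and DKO libraries, while akr1a1a was not analysed here. WT libraries spread widely on the first principal component of all genes, from -204 in replicate 1 to -83.7 in replicate 6. On this component AKR1A1AKO libraries lay at -45.7 to 5.65, GLO1KO libraries at 56.9 to 84.0 and DKO libraries at 66.7 to 85.2. The genotypes thus differed along the same component as the WT libraries did among themselves. Summed markers of other cells also moved with genotype. The 13 erythroid markers summed to 580 to 684 CPM in WT and 339 to 482 CPM in the knockout libraries, and the 12 neuron markers to 2830 to 3960 CPM in WT and 4090 to 4610 CPM in the knockouts. Of the 12 erythroid genes tested, 9 had a log2 fold change below 0 in DKO against WT. EPB41 (0.50), hbae1.1 (0.44) and hemgn (0.01) lay above 0. Of the 12 neuron genes 2 had a log2 fold change below 0 in DKO against WT, vamp2 (-0.48) and ELAVL3 (-0.15). The 9 liver markers summed to 1550 to 3980 CPM in WT, 609 to 1350 in AKR1A1AKO, 405 to 789 in GLO1KO and 944 to 1700 in DKO libraries. In DKO against WT, 8 of these 9 genes had a log2 fold change below 0. Among the 8, fabp10a lay near 0 (-0.09), whereas fabp10b was higher (0.86). The 18 mural cell markers summed to 404 to 588 CPM in WT, 370 to 410 in AKR1A1AKO and 397 to 448 in DKO libraries. The GLO1KO libraries, at 346 to 379 CPM, were all below WT. By the thresholds given below, 8 of the 18 genes were called lower and none higher in GLO1KO against WT. This was 44.4%, against 24.5% of all genes called. In AKR1A1AKO larvae 5 were called lower and 1 higher (33.3%, against 11.5%), and in DKO larvae 4 and 1 (27.8%, against 25.3%). The 6 epidermis markers summed to 10800 to 13100 CPM in WT and to 13500 to 16100 in AKR1A1AKO, 12700 to 14900 in GLO1KO and 13600 to 16700 CPM in DKO libraries. Of these 6 genes 3 had a log2 fold change below 0 in DKO against WT. The most abundant of them, krt4, had a mean of 8580 CPM in WT and 8540 CPM in DKO larvae. The sum of the 19 skeletal muscle markers was above WT (64500 to 73600 CPM) in all DKO libraries (76900 to 85600). It overlapped WT in AKR1A1AKO (59200 to 80500) and GLO1KO libraries (62900 to 80500). The single muscle genes did not rise as a set, since 10 of the 19 had a log2 fold change below 0 in DKO against WT, with a median of -0.09. Of them 5 were called lower and 1 higher (31.6%, against 25.3% of all genes called). None of the genes on these 6 lists was at 0 throughout a genotype. The part of such shifts, and of the WT spread, in the results below was not tested beyond the values given without WT replicate 1. Scaling by library size alone moved the median over all genes of the log2 fold change to -0.18 in DKO and -0.13 in GLO1KO against WT, so directions are relative to TMM scaling.

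Between DKO and WT larvae, kdr and fli1 fell. They were the 2 of 11 genes that were called lower, with calls made at an adjusted p under 0.05 and more than 1.5-fold change in edgeR's quasi-likelihood test, and none was called higher. Over all 19765 genes tested, 18.0% were called lower, 7.32% higher and 25.3% in either direction, so 2 of 11 is close to the background. Without a fold change threshold, 7 of 11 genes were lower and none higher at an adjusted p below 0.05, against 31.4% of all genes lower and 29.6% higher. These were kdr, kdrl, flt4, tie1, plvapb, fli1 and VEGFA (ENSDARG00000034700). Without WT replicate 1 they were 5, since flt4 and the VEGFA gene no longer passed. The other genes were cdh5, tek, plvapa and VEGFA (ENSDARG00000103542). The median log2 fold change was -0.35 over the 11 genes and -0.01 over all genes. In bulk RNA, fewer endothelial cells and less RNA per cell cannot be told apart.

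**Figure D1:**
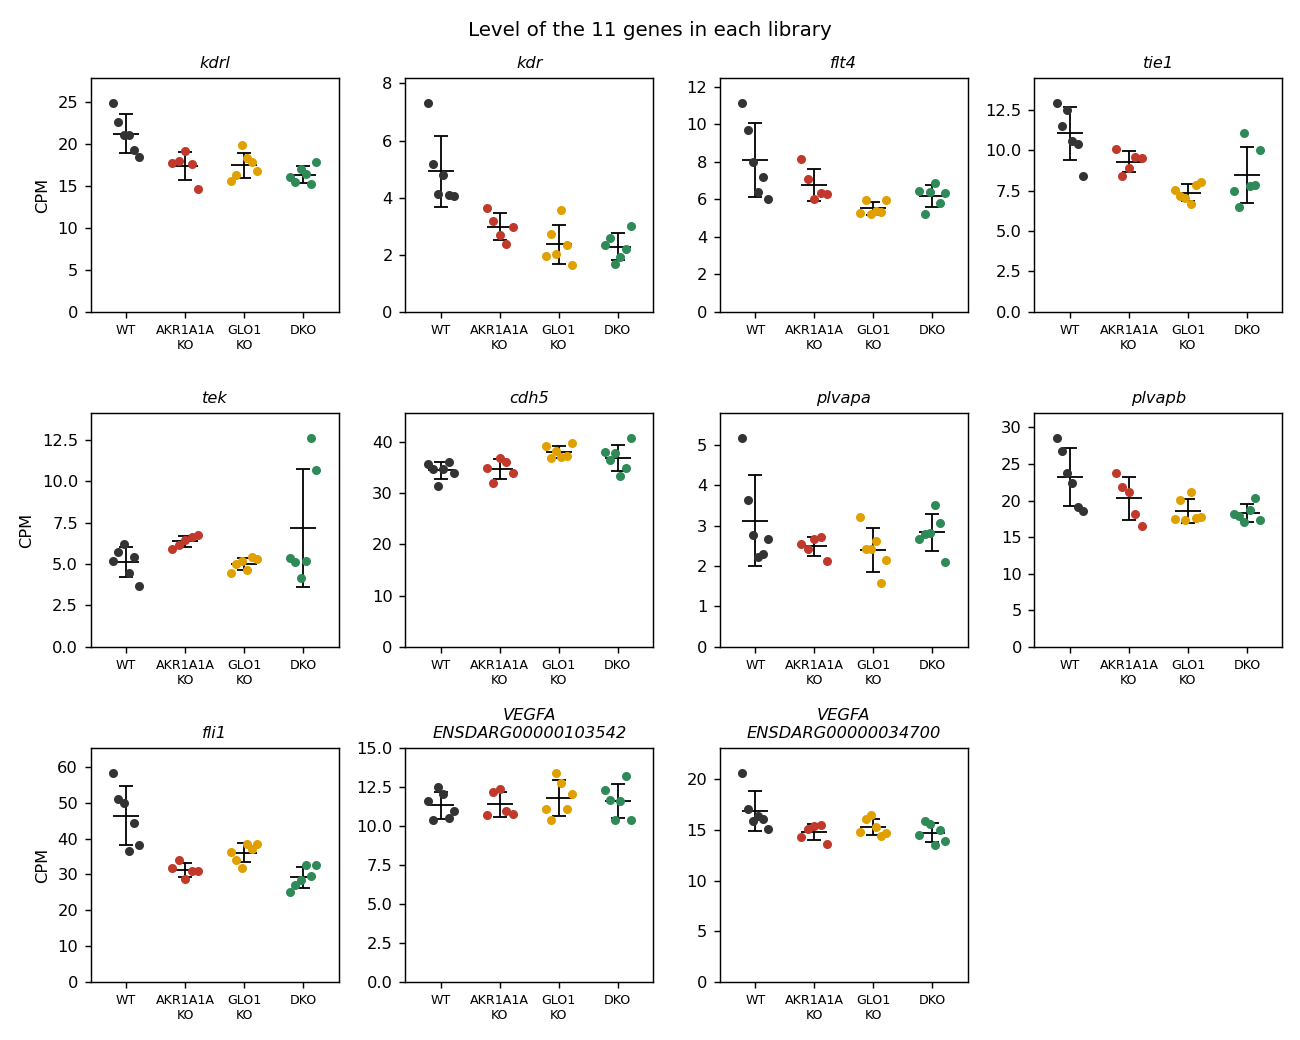
Level of each of the 11 genes in CPM (y axis, from 0) in each library, by genotype (x axis, 6 WT, 5 AKR1A1AKO, 6 GLO1KO and 6 DKO libraries). Points are libraries, the long bar is the mean and the whiskers are 1 SD. All knockout libraries lie below all WT libraries for kdr. All DKO libraries also lie below all WT libraries for kdrl and fli1, while the levels of the other genes overlap between DKO and WT.

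Of the 11 genes, kdr had the most negative log2 fold change against WT in each knockout. Its WT libraries had a lowest level of 4.06, a median of 4.46 and a highest level of 7.30 CPM. The AKR1A1AKO libraries held 3.64, 3.17, 2.70, 2.39 and 2.98 CPM. In GLO1KO the lowest, median and highest levels were 1.63, 2.19 and 3.55 CPM, and in DKO they were 1.66, 2.27 and 3.00 CPM. Every library of each knockout lay below every WT library, whereas the 3 knockouts overlapped one another. The mean was 4.92 ± 1.25 CPM (SD, n = 6) in WT, 2.98 ± 0.474 (n = 5) in AKR1A1AKO, 2.37 ± 0.687 (n = 6) in GLO1KO and 2.29 ± 0.48 (n = 6) in DKO larvae. The n of each genotype and the use of the SD are the same for all means that follow. The log2 fold change was -1.12 (standard error 0.174, adjusted p = 6.15e-05 from edgeR) in DKO, a 2.17-fold lower level. It was -1.06 (standard error 0.192, adjusted p = 0.00024) in GLO1KO and -0.72 (standard error 0.17, adjusted p = 0.00668) in AKR1A1AKO larvae, in each case against the same WT libraries. WT replicate 1 held the highest kdr level. Without it the values were -0.97 (adjusted p = 4.82e-05), -0.91 (adjusted p = 0.000288) and -0.58 (adjusted p = 0.00605), and only the last fell short of the 1.5-fold threshold.

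The related receptor kdrl fell less. Its lowest, median and highest levels were 18.4, 21.0 and 24.8 CPM in WT, 15.6, 17.2 and 19.8 CPM in GLO1KO and 15.2, 16.2 and 17.8 CPM in DKO libraries. The AKR1A1AKO libraries held 17.7, 18.0, 19.1, 17.6 and 14.6 CPM. DKO was the only genotype in which every library was below the lowest WT library. The log2 fold change against WT was -0.39 (standard error 0.0739, adjusted p = 0.000366) in DKO, -0.28 (standard error 0.0795, adjusted p = 0.00604) in GLO1KO and -0.28 (standard error 0.0881, adjusted p = 0.0248) in AKR1A1AKO larvae. All 3 passed the adjusted p but not the 1.5-fold threshold. The AKR1A1AKO value no longer passed without WT replicate 2 (adjusted p = 0.0524) or AKR1A1AKO replicate 5 (adjusted p = 0.0609).

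The receptor of VEGFC, flt4, was lowest in GLO1KO larvae. There its lowest, median and highest levels were 5.21, 5.35 and 5.95 CPM, all below the WT libraries at 6.03, 7.59 and 11.1 CPM. DKO libraries lay between, at 5.23, 6.36 and 6.86 CPM, and overlapped both. AKR1A1AKO libraries held 8.14, 7.05, 6.01, 6.34 and 6.29 CPM and overlapped WT but not GLO1KO. The log2 fold change against WT was -0.55 (standard error 0.136, adjusted p = 0.00261) in GLO1KO and -0.40 (standard error 0.138, adjusted p = 0.0215) in DKO larvae. In AKR1A1AKO larvae it was -0.25 (adjusted p = 0.215), with a 95% interval from -0.58 to 0.08. The DKO value was -0.28 (adjusted p = 0.0513) without WT replicate 1, which held the highest level, and it also missed the adjusted p without WT replicate 2 (0.0533) or DKO replicate 2 (0.0503).

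Of the Tie receptors, tie1 was lower in GLO1KO and DKO larvae and tek was not. Levels of tie1, the partner of tek, were 8.41, 11.1 and 12.9 CPM (lowest, median and highest) in WT libraries and 6.66, 7.36 and 8.03 CPM in GLO1KO libraries. The GLO1KO libraries were thus all below WT, and also below the AKR1A1AKO libraries at 10.1, 8.38, 8.88, 9.56 and 9.55 CPM. DKO libraries were scattered, with 6.50, 7.45, 7.80 and 7.85 CPM in replicates 2, 1, 4 and 5 but 11.1 and 10 CPM in replicates 3 and 6. The log2 fold change against WT was -0.58 (standard error 0.0983, adjusted p = 0.00013) in GLO1KO larvae, just under the 1.5-fold threshold, and -0.40 (standard error 0.132, adjusted p = 0.0167) in DKO larvae. It was -0.25 (adjusted p = 0.0813) in AKR1A1AKO larvae, with a 95% interval from -0.48 to -0.02. The AKR1A1AKO value passed in 1 of 11 fits that left out a library (adjusted p = 0.0129). It also passed with library size alone and with a replicate block.

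The angiopoietin receptor tek did not pass the adjusted p in any comparison with WT, although several alternatives passed it. Its lowest, median and highest levels were 3.68, 5.31 and 6.23 CPM in WT and 4.47, 5.09 and 5.42 CPM in GLO1KO libraries. AKR1A1AKO libraries held 5.93, 6.16, 6.44, 6.64 and 6.73 CPM, all above GLO1KO but overlapping WT. In DKO larvae 4 libraries held 5.35, 5.14, 4.14 and 5.16 CPM, while replicates 5 and 6 held 12.6 and 10.7 CPM, the highest levels of all 23 libraries. The DKO mean of 7.17 ± 3.53 CPM therefore rested on these 2 libraries. The log2 fold change against WT was 0.47 (standard error 0.25, adjusted p = 0.116) in DKO, with a 95% interval from -0.06 to 1.00, and 0.32 (standard error 0.124, adjusted p = 0.0577) in AKR1A1AKO larvae. It was -0.04 (adjusted p = 0.798) in GLO1KO larvae. Without DKO replicate 3, which held the lowest level, the DKO value was 0.59 with an adjusted p of 0.0485 and would have been called, and without DKO replicate 5 it was 0.24. With all 23 libraries in 1 fit it was 0.48 (adjusted p = 0.0379). The AKR1A1AKO value passed without WT replicate 3 (0.38, adjusted p = 0.0317), with DESeq2 (adjusted p = 0.0387) and with limma-trend (adjusted p = 0.0496), short of the 1.5-fold threshold each time, while the 1 fit of all libraries gave an adjusted p of 0.228.

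The junction gene cdh5 was not lower in any knockout under TMM scaling. Its lowest, median and highest levels were 31.5, 34.8 and 36 CPM in WT, 36.9, 37.7 and 39.8 CPM in GLO1KO and 33.3, 37.1 and 40.7 CPM in DKO libraries. AKR1A1AKO libraries held 34.9, 32.0, 36.8, 36 and 33.9 CPM. The GLO1KO libraries were all above the WT and AKR1A1AKO libraries, and the log2 fold change in GLO1KO larvae was 0.14 (standard error 0.0452, adjusted p = 0.0115), a 1.11-fold higher level. With scaling by library size alone, that value was 0.02. In DKO larvae the log2 fold change was 0.09 (adjusted p = 0.196, 95% interval -0.03 to 0.21), and in AKR1A1AKO larvae 0.01 (adjusted p = 0.858, 95% interval -0.10 to 0.13). Both turned to values below 0, -0.09 and -0.05, with scaling by library size alone. A fall of cdh5 like that of kdr thus lay outside the interval of every genotype.

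Of the 2 diaphragm genes, plvapb fell in DKO and GLO1KO larvae. Its lowest, median and highest levels were 18.6, 23 and 28.5 CPM in WT, 17.3, 17.7 and 21.2 CPM in GLO1KO and 17.1, 18.1 and 20.4 CPM in DKO libraries, and AKR1A1AKO libraries held 23.8, 21.8, 21.2, 18.2 and 16.5 CPM. All knockouts overlapped WT. The log2 fold change was -0.35 (standard error 0.0981, adjusted p = 0.00584) in DKO, -0.32 (standard error 0.102, adjusted p = 0.0137) in GLO1KO and -0.19 (adjusted p = 0.239) in AKR1A1AKO larvae. Of the alternatives, only a fit that included the replicate number passed the adjusted p for plvapb in AKR1A1AKO larvae. For plvapa, with 1.57 to 5.16 CPM over all libraries, no comparison with WT passed the adjusted p. The log2 fold change of plvapa was -0.16 (95% interval -0.58 to 0.27) in DKO larvae, and 0.05 without WT replicate 1.

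The transcription factor fli1 was the second gene called lower in DKO larvae. Its lowest, median and highest levels were 36.5, 47.2 and 58.2 CPM in WT, 31.7, 36.7 and 38.5 CPM in GLO1KO and 25.0, 28.9 and 32.5 CPM in DKO libraries. AKR1A1AKO libraries held 31.8, 34.1, 28.6, 31.0 and 30.9 CPM. All DKO and all AKR1A1AKO libraries were below the lowest WT library, while GLO1KO libraries overlapped WT. The order of the means was WT at 46.4 ± 8.30, GLO1KO at 36 ± 2.67, AKR1A1AKO at 31.3 ± 2.00 and DKO at 29.2 ± 2.97 CPM. The last 2 genotypes overlapped, with a log2 difference of -0.11 (95% interval -0.26 to 0.04). Against WT the log2 fold change was -0.68 (standard error 0.106, adjusted p = 6.19e-05) in DKO larvae. It was -0.57 (standard error 0.111, adjusted p = 0.00304) in AKR1A1AKO and -0.36 (standard error 0.101, adjusted p = 0.0058) in GLO1KO larvae, both short of the 1.5-fold threshold. The AKR1A1AKO value lay so near the threshold that it was called without WT replicate 4 (-0.63), WT replicate 6 (-0.62) or AKR1A1AKO replicate 2 (-0.59). The 17 markers of head cartilage and neural crest, where fli1 is also expressed, summed to 2130 to 2760 CPM in WT, 1740 to 2290 in AKR1A1AKO, 1840 to 1930 in GLO1KO and 1940 to 2160 CPM in DKO libraries, and none was at 0 throughout a genotype. Against WT, 12 of the 17 had a log2 fold change below 0 in DKO, 13 in GLO1KO and 16 in AKR1A1AKO larvae. In the same order 6, 5 and 4 were called lower and none higher. These were 35.3%, 29.4% and 23.5%, against 25.3%, 24.5% and 11.5% of all genes called. Their part in the fli1 result was not tested.

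The 2 VEGFA genes moved little. VEGFA (ENSDARG00000034700) had lowest, median and highest levels of 15.1, 16.3 and 20.6 CPM in WT and 13.5, 14.7 and 15.9 CPM in DKO libraries, which overlapped. Its log2 fold change was -0.21 (standard error 0.0777, adjusted p = 0.0307) in DKO larvae, and -0.14 (adjusted p = 0.0653) without WT replicate 1, the highest library. It also missed the adjusted p without DKO replicate 1 (0.053), 4 (0.0703) or 6 (0.0637), and stood at 0.05 after rounding without WT replicate 2. It was -0.14 (adjusted p = 0.113) in GLO1KO and -0.19 (adjusted p = 0.0868) in AKR1A1AKO larvae. The AKR1A1AKO value passed in 1 of 11 fits that left out a library (adjusted p = 0.0483). It also passed with all libraries in 1 fit and with library size alone. VEGFA (ENSDARG00000103542) ran from 10.4 to 13.4 CPM over all libraries. Its log2 fold changes against WT were 0.02, 0.06 and 0.01 in DKO, GLO1KO and AKR1A1AKO larvae, with 95% intervals of -0.14 to 0.19, -0.10 to 0.23 and -0.15 to 0.17. All 3 turned below 0 with scaling by library size alone, to -0.15, -0.06 and -0.05.

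**Figure D2:**
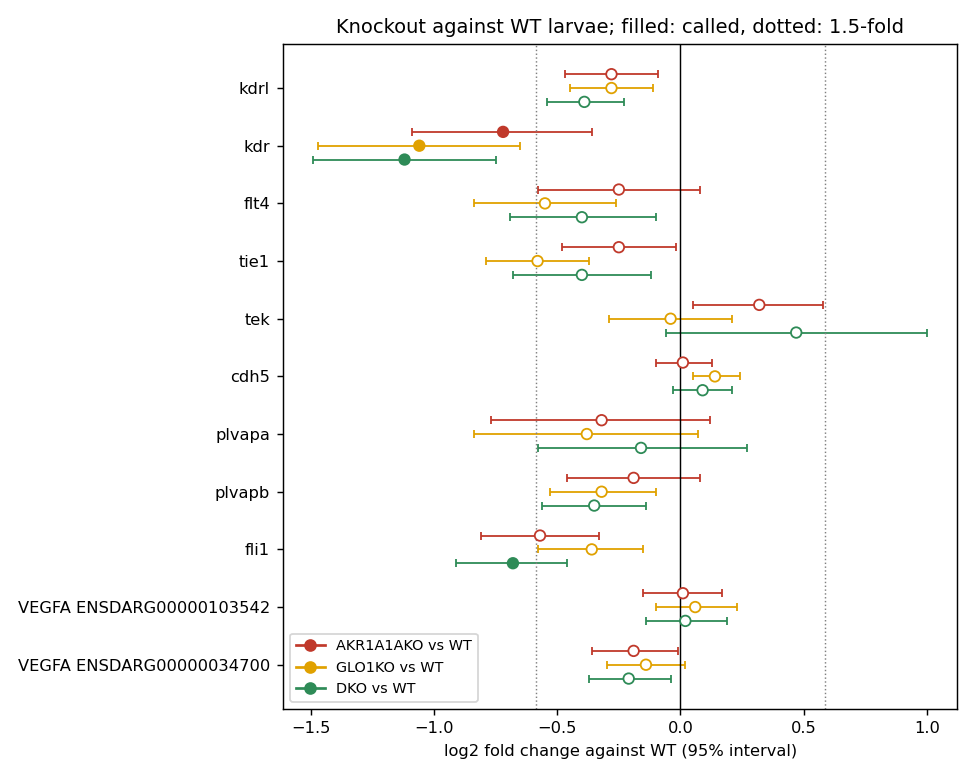
Log2 fold change of each gene against WT (x axis) in AKR1A1AKO, GLO1KO and DKO larvae (colours), with 95% intervals as whiskers. Filled points passed an adjusted p of 0.05 and the 1.5-fold threshold (dotted lines), which holds for kdr in all 3 knockouts and for fli1 in DKO only.

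The single knockouts were compared with WT in the same way. In GLO1KO larvae 1 of 11 genes, kdr, was called lower, against 17.7% of the 19758 genes tested. At an adjusted p below 0.05 without a fold threshold, 6 were lower, against 32.5% of all genes, and 1, cdh5, was higher, against 30.5%. All libraries of 3 genes, kdr, flt4 and tie1, were below WT, against 20.1% of all genes, and those of cdh5 above WT, against 19.4%. The count of 1 rose to 3, with flt4 and tie1 added, without WT replicate 4 or 6 and with scaling by library size alone. It was 2 without WT replicate 5 or GLO1KO replicate 1, 5 or 6. Of all genes, 22.1% to 26.2% were called when 1 library was left out and 26.3% with library size alone. In AKR1A1AKO larvae kdr alone was called lower, against 9.28% of the 19892 genes tested, and 3 genes, kdr, kdrl and fli1, were lower at an adjusted p below 0.05, against 19.7%. Libraries did not overlap WT for kdr and fli1, against 8.87% of all genes. Without WT replicate 1 no gene was called in AKR1A1AKO larvae, although kdr kept an adjusted p of 0.00605. Without WT replicate 4 or 6 or AKR1A1AKO replicate 2 the count was 2. Of all genes, 8.66% to 13.5% were called in AKR1A1AKO larvae when 1 library was left out. The 3 comparisons share their WT libraries. The libraries of kdr, kdrl and fli1 did not overlap between DKO and WT, against 18.4% of all genes that were lower in this way.

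DKO larvae were also compared with each single knockout. Such a difference holds the loss of the other gene and any difference between the lines, which cannot be told apart. Between DKO and GLO1KO larvae none was called, against 4.24% of the 19582 genes tested, and none was called by DESeq2 or limma-trend. At an unadjusted p below 0.05 there were 2, fli1 and tek. No share of all genes is given at this threshold, so the count is not read as a result. The gene fli1 was lower in DKO, with a log2 difference of -0.32 (standard error 0.0669, adjusted p = 0.00407), against 7.25% of all genes lower at this threshold, and its libraries overlapped at 32.5 and 31.7 CPM. For tek the difference was 0.51 (standard error 0.227, adjusted p = 0.138), with a 95% interval from 0.03 to 0.99. It was 0.63 (adjusted p = 0.05 after rounding, called) without DKO replicate 3. The kdr difference was -0.06, with a 95% interval from -0.46 to 0.34. Between DKO and AKR1A1AKO larvae none of the 11 genes was called or passed an adjusted p of 0.05, against 11.9% of the 19746 genes tested that were called and 20.9% lower and 20.2% higher at this adjusted p, and DESeq2 and limma-trend called none either. At an unadjusted p below 0.05, again without a share of all genes, there was 1, kdr. Its log2 difference was -0.39 (standard error 0.162, adjusted p = 0.067), with a 95% interval from -0.74 to -0.04.

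Whether loss of akr1a1a acted differently once glo1 was lost was asked by the interaction, the DKO minus GLO1KO difference less the AKR1A1AKO minus WT difference. The interaction, too, cannot be told apart from differences between the lines. It passed an adjusted p of 0.05 for 1 gene, tie1, against 31.8% of the 20136 genes tested in either direction and 17.0% above 0. For tie1 the difference was 0.18 with glo1 lost and -0.25 with glo1 present, an interaction of 0.45 (standard error 0.16, adjusted p = 0.0357). The call was lost with limma-trend (0.41, adjusted p = 0.0507). It was also lost when any 1 of 9 libraries was left out (WT replicates 1, 2 and 3, AKR1A1AKO replicates 2 and 3, GLO1KO replicates 3 and 4, and DKO replicates 3 and 6), with adjusted p up to 0.0692. The interaction of kdr was of similar standing, at 0.68 (standard error 0.262, adjusted p = 0.0508), and it passed with DESeq2 (0.66, adjusted p = 0.0402), limma-trend (0.67, adjusted p = 0.046), library size scaling (adjusted p = 0.0489) and when any of 8 of the 23 libraries was left out. It was 0.53 (adjusted p = 0.102) without WT replicate 1, which held the highest kdr level. Without that library no interaction among the 11 genes passed. The median interaction was 0.21 over the 11 genes, of which 9 lay above 0, and 0 over all 20136 genes, of which 10150 lay above 0.

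Since cdh5 marks endothelial cells and did not fall with the receptors, the other 10 genes were also expressed as counts per 100 cdh5 counts of the same library, a ratio that does not depend on scaling between libraries. This ratio was chosen after the levels had been seen and is given without a test. Because cdh5 was picked as a gene that did not fall, lower ratios of the other genes follow in part from that choice. The shares below therefore describe the libraries and are not further evidence of a fall. The denominator was itself higher in all GLO1KO than in all WT libraries under TMM scaling, which lowers every GLO1KO ratio. For kdr the ratio had a median of 13.4 in WT (range 11.4 to 20.4), 8.80 in AKR1A1AKO (6.64 to 10.4), 5.81 in GLO1KO (4.09 to 9.58) and 6.24 in DKO libraries (4.39 to 7.37). For kdrl the medians were 62.7, 50.8, 45.9 and 43.6, and for fli1 they were 135, 91.0, 94.7 and 77.4. All libraries lay below all WT libraries for 1 of the 10 genes (kdr) in AKR1A1AKO larvae, against 7.65% of the 20135 genes other than cdh5. The same held for 6 of 10 in GLO1KO (kdr, kdrl, flt4, tie1, fli1 and VEGFA, ENSDARG00000034700), against 27.1% of all genes. Of these 6, kdrl, fli1 and the VEGFA gene overlapped WT in CPM and were apart only in the ratio. In DKO larvae it held for 4 of 10 (kdr, kdrl, fli1 and the same VEGFA gene, which overlapped WT in CPM), against 20% of all genes. No ratio of the 10 genes lay above all WT libraries, whereas 8.58% of all genes did so in DKO, 8.22% in GLO1KO and 5.80% in AKR1A1AKO larvae.

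**Figure D3:**
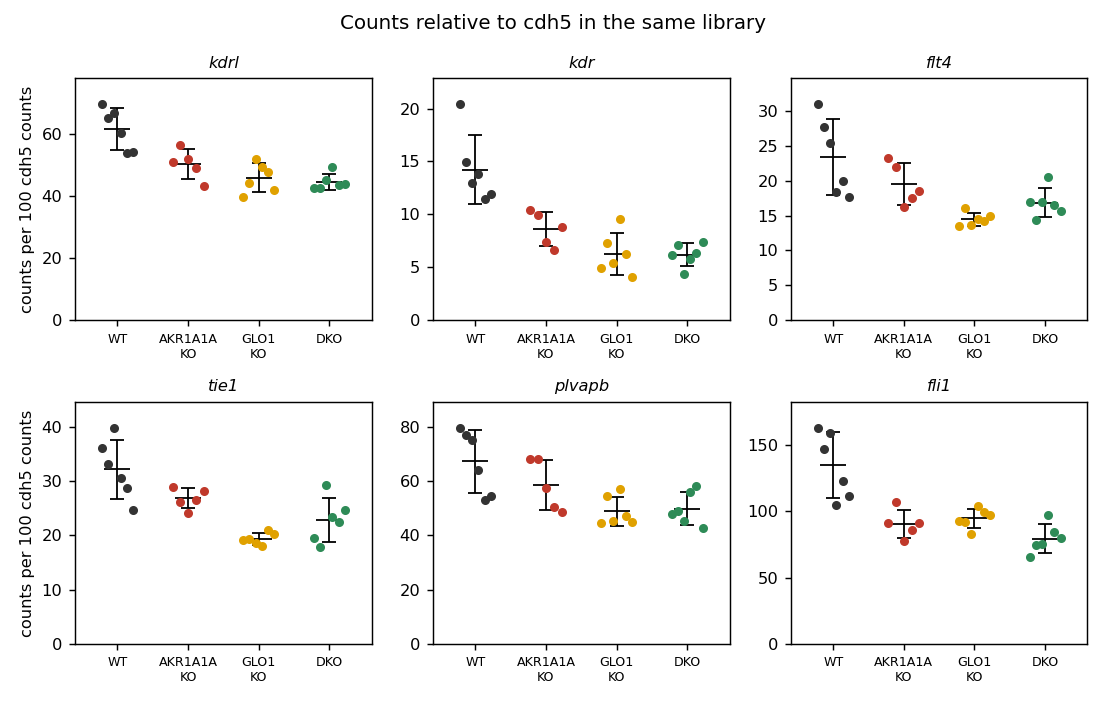
Counts of 6 genes per 100 cdh5 counts in the same library (y axis, from 0), by genotype (x axis). Points are libraries, the long bar is the mean and the whiskers are 1 SD. In DKO larvae kdr, kdrl and fli1 lie below all WT libraries, whereas flt4, tie1 and plvapb overlap them.

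The genes varied together among libraries to an unequal degree. Within WT, replicate 1 held the highest level for 8 of the 11 genes and replicate 6 the lowest for 7. After the mean of its genotype was subtracted, the log2 CPM of fli1 and flt4 had the highest Pearson correlation among the pairs, 0.76 over 23 libraries, followed by 0.69 for flt4 and plvapb. These libraries share a genotype mean and a scaling, and no test was made. The spread of both fli1 and flt4 was widest in WT, with an SD of 8.3 and 1.96 CPM. In the knockouts the SD was at most 2.97 and 0.859 CPM, so WT libraries weigh heavily in their correlation. The part of the WT spread in the other correlations was not tested. Against the mean of the other genes, plvapb (0.73), flt4 (0.70) and kdrl (0.68) had the highest correlations within genotype and cdh5 (0.02) and VEGFA (ENSDARG00000103542, 0.00) the lowest by size. Of the 20125 other genes, NID2 (0.92), RHAG (0.91), myhz1.1l (0.90), rhoca (0.90) and PPL (0.89) were most like the mean of the 11 genes within genotype. Over all libraries the most alike were PPL and rhoca (0.94 each) and FN1, acvrl1 and dlx4a (0.92 each).

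Genes that act with the 11 were followed as lists. Of 8 other VEGF ligands and co-receptors tested, 3 were called lower and none higher between DKO and WT larvae, against 18.0% of all genes called lower, with a median log2 fold change of -0.27. The co-receptor nrp1b, a neuropilin that binds VEGF, fell from 14.4 ± 1.25 to 4.81 ± 0.41 CPM, with libraries at 12.4 to 15.8 and 4.27 to 5.26 CPM. Its log2 fold change was -1.59 (standard error 0.0826, adjusted p = 1.97e-09), and levels were 9.13 ± 1.25 CPM in AKR1A1AKO and 6.11 ± 0.569 CPM in GLO1KO larvae. The other neuropilin genes were more abundant and changed less in DKO against WT. NRP1 went from a mean of 81.4 to 62.3 CPM (-0.40, adjusted p = 2.2e-05), short of the 1.5-fold threshold. Its libraries did not overlap, at 72.9 to 89 CPM in WT and 58.6 to 68.3 CPM in DKO. The NRP2 genes had log2 fold changes of 0.14 (adjusted p = 0.0671) and 0.03 (adjusted p = 0.706). The ligand vegfba was called at -0.61 but not without WT replicate 1 (-0.57), WT replicate 2 (-0.58) or DKO replicate 2 (-0.55), and PGF (-1.51) was counted at 0.679 ± 0.296 CPM in WT. Of the 6 angiopoietin and Tie pathway genes, 3 were called lower and none higher, against the same 18.0%, with a median of -0.58, namely the ligands ANGPT4 (-0.82), angpt2b (-0.77) and ANGPT2 (-1.05), with WT means of 1.55, 1.34 and 0.70 CPM. Leaving out WT replicate 1 gave 2 calls of VEGF and 3 of angiopoietin genes.

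Of 34 junction and barrier genes, 6 were called lower and none higher in DKO against WT larvae, with a median of -0.01. The tight junction gene CLDN5 (ENSDARG00000043716) fell from 16.5 ± 1.31 to 9.39 ± 1.18 CPM (-0.82, adjusted p = 1.48e-06), whereas a further CLDN5 gene (ENSDARG00000014059), which could share its reads, was higher at 18.7 ± 1.23 against 14.2 ± 0.803 CPM (0.39, not called). The cerebral cavernous malformation gene CCM2 fell by 0.72 and the catenin JUP (ENSDARG00000059067) by 0.80 on the log2 scale. Of 45 other endothelial surface and secreted genes, 8 were called lower and 1 higher, with a median of -0.12. The surface protein cd34 fell from 30.7 ± 9.66 to 9.26 ± 1.15 CPM (-1.74, adjusted p = 7.26e-07) and the receptor calcrla by 1.25, while the scavenger receptor stab2 rose from 5.35 ± 0.12 to 9.32 ± 1.23 CPM (0.79, adjusted p = 3.68e-06). Of 28 endothelial transcription factors 6 were called lower and none higher, with a median of -0.06, led by TBX20 (-1.88), FOXO1 (ENSDARG00000061549, -1.66) and ETS1 (-1.10). In RNA of whole larvae, genes on these lists need not come from endothelium alone, and their cells of origin were not examined. Of 35 hypoxia regulators and targets, which include inducers of VEGFA, 8 were called lower and 3 higher, with a median of -0.01. The glucose transporter SLC2A1 fell by 1.66, the kinase PDK1 by 0.90 and the HIF partner arnt by 1.03. The shares called in the last 4 lists, from 17.6% to 31.4%, lay around the 25.3% of all genes. Without WT replicate 1 the genes called in either direction on these 4 lists were 4, 9, 6 and 8, against 6, 9, 6 and 11 with it.

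**Figure D4:**
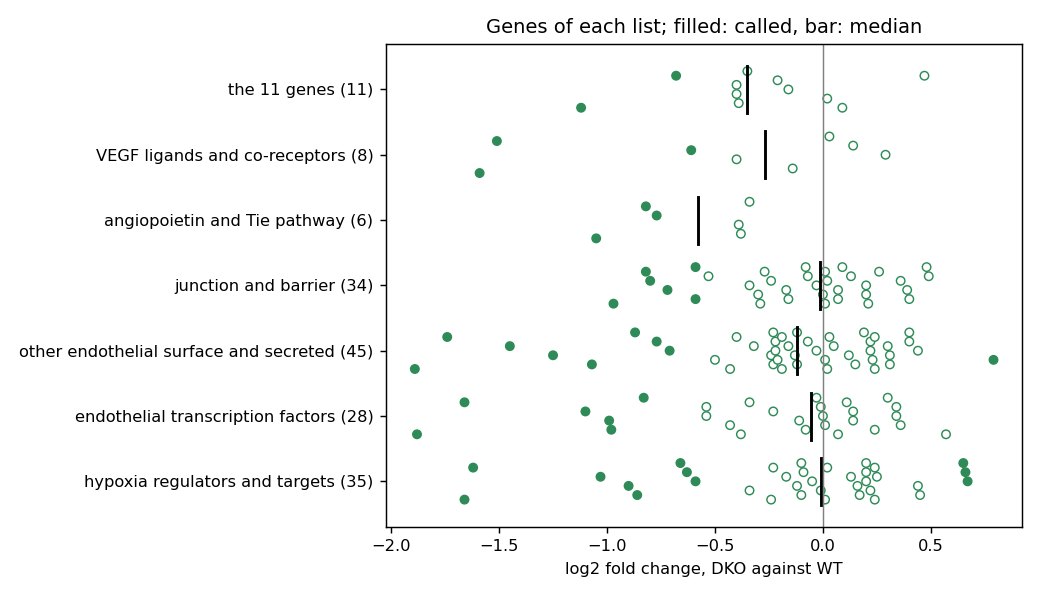
Log2 fold change in DKO against WT larvae (x axis) of each gene tested of the 11 genes and of 6 lists (rows, number of genes tested in brackets). Filled points were called and the bar is the median of a list, from -0.58 for angiopoietin and Tie pathway genes to -0.01 for junction and hypoxia genes.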

How the data were processed

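Whole larvae of 4 genotypes were profiled in 23 libraries. Reads had been filtered with SOAPnuke, aligned to GRCz11 with HISAT2 and counted per gene with featureCounts (2.0.3) by the authors, and these expected counts were deposited without normalization. The annotation release and the strand setting are not given in the sources used here. Values that were not whole, in 94 genes (0.411%, none of the 11 described), were rounded, so whole counts assumed at planning were in fact estimated counts. Gene symbols were given for 88.2% of genes.

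Counts were scaled by TMM and tested with edgeR (4.0.16, R 4.3.3) by the quasi-likelihood test over genes passing filterByExpr, with the libraries of the 2 genotypes compared, or all 23 for the interaction. All tests were two-sided, p-values were adjusted over all genes tested by the Benjamini-Hochberg method, and 1.5-fold and 0.05 were the thresholds. limma (3.58.1) and DESeq2 (1.42.0), RLE factors, library size alone, no filter, all libraries in 1 fit, a replicate block and leaving out each library were alternatives. On simulated counts with 200 changed genes, 77.5% to 92.9% were recovered over the comparisons. These genes were raised or lowered 2-fold in equal numbers. Smaller changes, and a surplus of lowered genes as in the data, were not simulated. Counts of 100 or more differed between replicates by a mean chi-square of at least 5.9, so none was a copy. Intervals cover the spread between clutches, which may be partly technical.

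Named genes were every member of the rule, glo1, up to 3 called genes with the smallest p per list and comparison, and the 5 genes most correlated with the members. The further CLDN5 gene was named after its values were seen. Members and lists were chosen with earlier results of these data known. Lists matched a symbol or the symbol plus a or b. Leukocyte markers, not described above, summed to 34.0 to 66.9 CPM in WT, 32.5 to 43.7 in AKR1A1AKO, 32.4 to 36.6 in GLO1KO and 31.8 to 40.8 CPM in DKO libraries.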

Additional observations from a re-analysis of the deposited data

Results flagged for a closer look

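The kdr level of WT replicate 1, 7.30 CPM, lay far from the other 5 WT libraries, which held 4.06 to 5.18 CPM. The VEGFA (ENSDARG00000034700) level of the same library, 20.6 CPM, lay far from the others at 15.1 to 17.1 CPM. Among 44 combinations of gene and genotype examined in this way, these 2 stood out, both in WT replicate 1. About 2.2 would be expected if the 44 were independent. They were not, since genes share libraries and WT replicate 1 held the highest WT level for 8 of the 11 genes. The number therefore does not show whether this library departs from the others. The tek levels of DKO replicates 5 and 6, 12.6 and 10.7 CPM, were not flagged in this way. The interaction of tie1, 0.45 on the log2 scale, was flagged because its 2 effects of akr1a1a loss differed by the test given above.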

How the results depend on the processing

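The calls of kdr and fli1 in DKO against WT and of kdr in GLO1KO larvae held under every alternative run, and that of kdr in AKR1A1AKO larvae under all but leaving out WT replicate 1. Without a fold change threshold, 7 of the 11 genes passed in DKO, 7 in GLO1KO and 3 in AKR1A1AKO larvae against WT, and 1 between DKO and GLO1KO. Of all genes, 61.0%, 63.1%, 37.6% and 16.6% passed in these comparisons. Without a fold threshold, scaling by library size alone also passed plvapa and VEGFA (ENSDARG00000034700) in GLO1KO, tie1 and that VEGFA gene in AKR1A1AKO larvae against WT, and fli1, kdr, kdrl and plvapb, all lower, between DKO and AKR1A1AKO, and it lost cdh5 in GLO1KO larvae. Scaling by library size alone gave 3 called genes in GLO1KO, 2 in AKR1A1AKO larvae and 2 interactions, and DESeq2 gave 2 interactions. Of all genes, library size scaling called 26.3% in GLO1KO and 12.5% in AKR1A1AKO larvae. Interactions passed for 31.4% of all genes with library size scaling and for 33.9% with DESeq2. The labels gave no pairing by replicate number. Correlations of same-numbered libraries ran from -0.13 to 0.21, and at most 1 library per comparison correlated best with its own number. An order by number shared between genotypes was not tested. On the first principal component WT libraries lay in order of number. AKR1A1AKO replicates 1 to 5 lay nearly so, at -45.7, -30.8, -16.4, 5.65 and -7.67, and GLO1KO and DKO libraries did not. A replicate block raised the genes called in AKR1A1AKO against WT from 2296 to 2706 over all genes, or from 11.5% to 13.6%. With it 34.6% of all genes had an interaction. With a replicate block 2 genes were called in AKR1A1AKO larvae and 2 had an interaction, plvapb (-0.25, adjusted p = 0.00665), flt4 (-0.31, adjusted p = 0.0319) and tie1 (-0.31, adjusted p = 0.0174) passed the adjusted p in AKR1A1AKO larvae against WT and kdr (-0.48, adjusted p = 0.0262) between DKO and AKR1A1AKO, tek turned to -0.09 and VEGFA (ENSDARG00000034700) to 0.0026 between DKO and AKR1A1AKO larvae, and the other 4 member counts did not move. With limma-trend the single interaction was that of kdr and not tie1. With scaling by library size alone cdh5 turned to -0.09 in DKO and -0.05 in AKR1A1AKO larvae against WT and to -0.04 between DKO and AKR1A1AKO, and VEGFA (ENSDARG00000103542) to -0.15, -0.06, -0.05 and -0.10 in DKO, GLO1KO and AKR1A1AKO larvae against WT and in DKO against AKR1A1AKO. The cause was not tested.

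When libraries were left out one at a time, called genes numbered 2 to 3 in DKO, 1 to 3 in GLO1KO and 0 to 2 in AKR1A1AKO larvae against WT, 0 to 1 between DKO and GLO1KO, 0 between DKO and AKR1A1AKO, and 0 to 3 for the interaction. Of all genes, 22.9% to 26.7%, 22.1% to 26.2% and 8.66% to 13.5% were called in these comparisons with WT. The shares were 3.45% to 4.65% between DKO and GLO1KO, 10.7% to 12.7% between DKO and AKR1A1AKO, and 26.7% to 36.1% for the interaction. Log2 values that changed sign when a library was left out all failed the adjusted p. VEGFA (ENSDARG00000103542) ran from -0.02 to 0.04 in AKR1A1AKO and from -0.02 to 0.05 in DKO larvae against WT, from -0.02 to 0.05 between DKO and AKR1A1AKO, from -0.08 to 0.0024 between DKO and GLO1KO and from -0.08 to 0.0043 for the interaction. VEGFA (ENSDARG00000034700) ran from -0.04 to 0.01 between DKO and AKR1A1AKO, and cdh5 from -0.01 to 0.05 in AKR1A1AKO larvae. Between DKO and GLO1KO, kdr ran from -0.15 to 0.09 and plvapb from -0.07 to 0.006, and plvapa ran from -0.24 to 0.05 in DKO larvae. For tek the values ran from -0.12 to 0.03 in GLO1KO larvae, from -0.07 to 0.28 between DKO and AKR1A1AKO and from -0.03 to 0.32 for the interaction. At 55 to 290 counts of kdr and 55 to 205 of plvapa in a library, counting error is larger for these genes than for fli1 or cdh5.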
